A study of Homo sapiens with 9 samples.

Results

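Genes for the synthesis of sterols and fatty acids, and for the control of that synthesis by sterol regulatory element–binding proteins (SREBPs), were examined in PC3 xenografts after treatment with antibody-drug conjugates. A list of 37 such genes was chosen by name with earlier results of these same comparisons known, and each was then selected on its listing in both deposited count tables. All 37 were among the 16008 genes in both tables, and all 37 passed the filter on low counts. The lowest count of any of them in any library was 277. The counts of changed genes given below therefore describe these genes, and nothing further is read from them.

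Cholesterol is made from acetyl-CoA through mevalonate, isoprenoid pyrophosphates, squalene and lanosterol, and fatty acids are made from the same acetyl-CoA by carboxylation, elongation and desaturation. SREBP transcription factors sit in the endoplasmic reticulum membrane bound to SCAP. When sterols are scarce, SCAP carries them to the Golgi, where the site-1 and site-2 proteases release the active fragment, and when sterols are plentiful, INSIG proteins hold SCAP back. Prostate cancer cells are known for active lipid synthesis, with fatty acid synthase as its best studied enzyme.

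RNA-Seq was performed on 9 libraries of subcutaneous tumors of PC3, an established human prostate cancer cell line from a bone metastasis, grown in male NSG mice, which lack mature T, B and NK cells but keep other host cells. Per the series record, the mice were 11 weeks of age at injection, treatment began at 90 mm3, and PBS vehicle or conjugate at 5 mg/kg was given weekly by retro-orbital injection for 5 cycles. The study's methods describe 2 xenograft experiments. Age, starting volume and cycles in the series record match the first, of T-DXd alone at a higher dose, whereas the dose and the pair of conjugates match the second, which had another age, volume and number of cycles. The methods describe RNA-Seq for tumors of the second experiment, with vehicle and both conjugates at 5 mg/kg. The age, volume and cycles of the series record therefore conflict with the methods. P-DXd (patritumab deruxtecan) binds HER3, T-DXd (trastuzumab deruxtecan) binds HER2, and both carry deruxtecan, a topoisomerase I inhibitor. There were 3 libraries for each of PBS, P-DXd and T-DXd by sample title. The treatment field names the opposite conjugate for all 6 treated libraries, so group names follow the titles (P-DXd-titled, T-DXd-titled), and the leading comparison is of the 6 treated with the 3 PBS libraries, which does not depend on that label. Nothing in the labels says whether each library came from a separate mouse, so p-values measure only the spread between these libraries.

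Total counts were 54481702 to 125538606 per library. PBS replicate 1 stood apart from the other PBS libraries: it was farther from both than they were from each other in 26 of 37 genes, and its summed level of 7 skin markers was 1024 CPM (counts scaled to the TMM-adjusted size of each library) against 160.5 to 264.2 in the other 8 libraries. P-DXd-titled replicate 2 was the lowest of the 6 treated libraries in 23 of the 37 genes, was the shallowest library, and had a summed level of 12 skeletal muscle markers of 4851 CPM against 14.48 to 317.7 elsewhere. The summed level of 5 epithelial markers was 1668 to 2345 CPM in PBS and 3127 to 3664 CPM in treated libraries. Such markers are shared by epithelial cancer lines, so they do not test the PC3 label.

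The promoters of 5 genes are shown because these genes stand for the steps that follow: the transcription factor SREBF2, the first enzyme after acetoacetyl-CoA (HMGCS1), the feedback regulator INSIG1, the gene with the largest fall (STARD4) and a sterol enzyme that rose (TM7SF2). Each run is the 200 bases before the first listed RefSeq start on GRCh38.p14, read 5′ to 3′ on the strand of the gene. Capitals mark the letters of a sterol regulatory element (TCACNCCAC), a CCAAT box (CCAAT, or ATTGG when read from the other strand) or an E-box (CACGTG). The windows are chr22:41832905-41833104 (plus strand), chr5:43313413-43313612 (minus strand), chr7:155297678-155297877 (plus strand), chr5:111512536-111512735 (minus strand) and chr11:65111672-65111871 (plus strand), in the order of the lines.
SREBF2: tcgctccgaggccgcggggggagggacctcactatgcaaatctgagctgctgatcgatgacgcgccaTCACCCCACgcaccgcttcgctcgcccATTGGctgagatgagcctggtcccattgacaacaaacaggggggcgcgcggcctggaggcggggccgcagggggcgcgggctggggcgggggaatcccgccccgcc
HMGCS1: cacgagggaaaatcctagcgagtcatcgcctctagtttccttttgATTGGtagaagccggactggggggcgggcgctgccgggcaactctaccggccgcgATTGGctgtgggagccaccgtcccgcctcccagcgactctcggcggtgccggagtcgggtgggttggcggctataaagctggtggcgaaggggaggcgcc
INSIG1: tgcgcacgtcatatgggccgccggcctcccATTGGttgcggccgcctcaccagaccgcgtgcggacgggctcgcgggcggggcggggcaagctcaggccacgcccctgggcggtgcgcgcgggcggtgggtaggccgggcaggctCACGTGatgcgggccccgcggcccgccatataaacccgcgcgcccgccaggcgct
STARD4: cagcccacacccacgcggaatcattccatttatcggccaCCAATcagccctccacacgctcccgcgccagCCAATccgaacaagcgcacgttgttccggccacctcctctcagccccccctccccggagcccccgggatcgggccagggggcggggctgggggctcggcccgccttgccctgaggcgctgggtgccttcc
TM7SF2: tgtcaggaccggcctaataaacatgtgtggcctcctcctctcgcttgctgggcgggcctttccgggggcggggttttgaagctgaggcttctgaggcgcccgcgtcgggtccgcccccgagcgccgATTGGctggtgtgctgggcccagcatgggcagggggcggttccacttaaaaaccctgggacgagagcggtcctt

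The CCAAT box is bound by NF-Y, a known partner of SREBPs, and its letters were common in these promoters. Of 33 genes with a RefSeq promoter (250 bases before to 50 after a start, any listed start, both strands), 24 held CCAAT (72.7%), against 4741 of 11115 genes tested in the treated comparison (42.7%). The share was 13 of 15 (86.7%) in the sterol synthesis steps and 5 of 7 (71.4%) in the fatty acid steps. It was 10 of 13 (76.9%) among genes that fell after treatment and 14 of 20 (70.0%) among the others. In 15 genes a single promoter held 2 or more CCAAT boxes, as HMGCS1 and STARD4 do in the windows above. An exact match to TCACNCCAC was found in SREBF2 alone (1 of 33, 3.03%, against 1.53% of genes tested), 133 bases before the start. Other spellings of a sterol element were not searched, so the other promoters are not shown to lack one. The E-box was found in 4 of 33 (12.1%), against 11.9% of genes tested. These are matches of letters and not binding sites, and no promoter was at hand for ACAT2, FDFT1, SQLE and FASN.

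Calls required a 1.5-fold change or more together with an adjusted p of 0.05 or less (edgeR quasi-likelihood test, Benjamini-Hochberg over all genes tested). In treated xenografts compared with PBS, 16 of the 37 genes fell, 2 rose (TM7SF2 and NPC2) and 19 were not called. Over all 15070 genes tested, 32.2% were called, 17.1% lower and 15.2% higher. The median log2 fold change was −0.45 for the 37 genes and −0.01 for all genes tested. The CPM ranges of the 6 treated and the 3 PBS libraries did not overlap in 27 of the 37 genes, 22 lower and 5 higher in treated, and ranges did not overlap in 50.5% of all genes tested. A further 10 genes passed the adjusted p but changed by less than 1.5-fold, 6 lower (FDFT1, FDPS, MSMO1, HSD17B7, ACACA and FADS2, log2 fold change −0.50 to −0.25) and 4 higher (PMVK, SCAP, MBTPS1 and LSS, 0.33 to 0.50). The nearest gene inside the fold minimum was EBP (−0.61) and the nearest outside it was FADS2 (−0.50). In bulk tumor RNA, fewer cells of a type and less RNA per cell cannot be told apart.

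**Figure D1:**
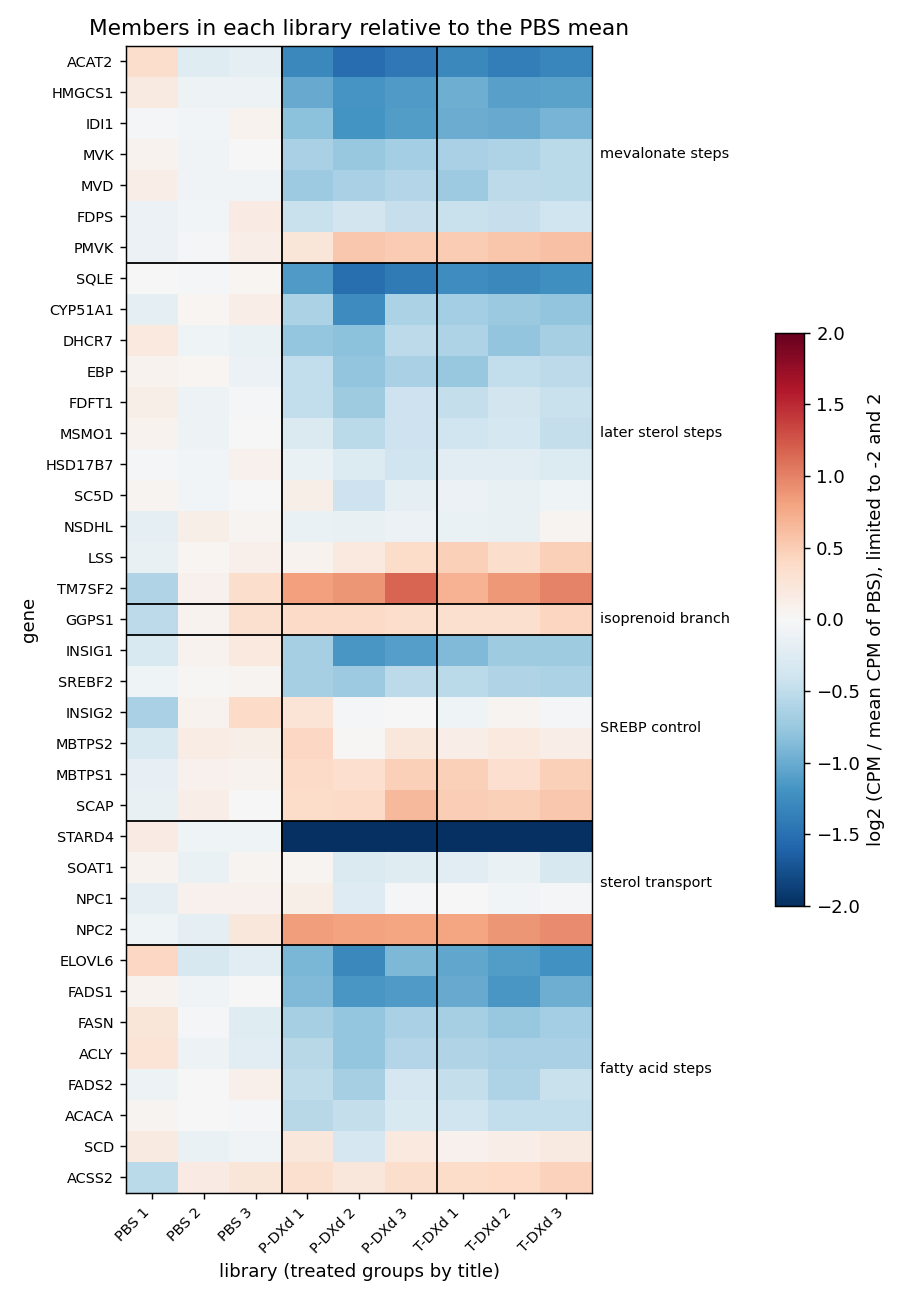
Level of each of the 37 genes (rows, grouped by role) in each of the 9 libraries (columns), as log2 of CPM over the mean CPM of PBS, with the color limited to −2 and 2. Blue is below the PBS mean and red above it, whether or not the gene was called, and STARD4 lies beyond the color limit in all 6 treated libraries.

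In the steps from acetyl-CoA to farnesyl pyrophosphate, 5 of 7 genes fell and none rose, with a median log2 fold change of −0.65. Over all genes tested, 17.1% were called lower and 15.2% higher. ACAT2, the cytosolic acetoacetyl-CoA thiolase that opens the pathway, had the largest fall of them. Its level was 65.7, 43.5 and 45.8 CPM in PBS, 21.2, 17.9 and 19.2 CPM in P-DXd-titled, and 21.1, 19.9 and 20.9 CPM in T-DXd-titled libraries. All 6 treated libraries were below all 3 PBS libraries, and the log2 fold change was −1.37 ± 0.12 (SE, adjusted p = 1.22e-05). ACAT2 overlaps TCP1 and SOD2 in the tables' coordinates, and the methods do not say whether strand was used in counting.

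HMGCS1, which makes HMG-CoA, fell from 144.9 ± 16.4 CPM (SD, n = 3) to 68.7 ± 3.65 CPM (n = 6), a log2 fold change of −1.08 ± 0.08. IDI1, the isopentenyl pyrophosphate isomerase, fell from 43.3 ± 2.02 to 21.6 ± 2.00 CPM, a log2 fold change of −1.01 ± 0.09. MVK, mevalonate kinase, and MVD, mevalonate pyrophosphate decarboxylase, fell less, with log2 fold changes of −0.65 and −0.62. The MVD value was −0.54 without PBS replicate 1, under the fold minimum, and MVK was at −0.58, also under it, without both PBS replicate 1 and P-DXd-titled replicate 2. The kinase between these enzymes differed from its neighbours: PMVK, phosphomevalonate kinase, had a log2 fold change of 0.50 ± 0.09 (adjusted p = 0.000932), under the fold minimum, and all 6 treated libraries (68.8 to 87.4 CPM) were above all 3 PBS libraries (53.4 to 63.9 CPM). FDPS, which makes farnesyl pyrophosphate, had a log2 fold change of −0.43. GGPS1, which turns farnesyl into geranylgeranyl pyrophosphate and leaves the sterol route, was at 30.1 ± 8.49 CPM in PBS and 38.8 ± 1.13 CPM in treated libraries (log2 fold change 0.36, adjusted p = 0.0517), with PBS replicate 1 at 21.0 CPM.

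Of the 11 genes from farnesyl pyrophosphate to cholesterol, 4 fell and 1 rose (17.1% and 15.2% over all genes tested), with a median log2 fold change of −0.41. SQLE, squalene epoxidase, the oxygen-requiring step that commits squalene to sterols, led the fall. It was at 206.7, 205.3 and 213.4 CPM in PBS, 95.3, 73.4 and 77.9 CPM in P-DXd-titled, and 87.9, 85.6 and 88.8 CPM in T-DXd-titled libraries. The PBS libraries were close together and every treated library lay far below them, and the log2 fold change was −1.30 ± 0.08 (adjusted p = 3.17e-06).

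LSS, lanosterol synthase, the step right after SQLE, did not follow it. Its level was 41.3, 46.7 and 49.1 CPM in PBS, 47.9, 52.2 and 58.8 CPM in P-DXd-titled, and 64.0, 58.4 and 63.8 CPM in T-DXd-titled libraries. The first P-DXd-titled library lay inside the PBS range and the other 5 treated libraries above it, and the log2 fold change of 0.33 ± 0.10 (adjusted p = 0.0192) was under the fold minimum.

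TM7SF2, a sterol C14 reductase that acts on the product of CYP51A1, rose. It was at 5.11, 8.25 and 9.90 CPM in PBS, 13.7, 14.2 and 17.3 CPM in P-DXd-titled, and 12.6, 14.1 and 15.4 CPM in T-DXd-titled libraries, with a log2 fold change of 0.91 ± 0.19 (adjusted p = 0.00220). The ranges did not overlap, and PBS replicate 1 was the lowest of all libraries; without it the log2 fold change was 0.69. CYP51A1, lanosterol demethylase, fell by 0.77 ± 0.14 on the log2 scale, and 30794 bases of its listed span are shared with LRRD1.

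DHCR7, the last reductase of one route to cholesterol, fell from 125.7 ± 16.3 to 77.7 ± 6.41 CPM, a log2 fold change of −0.69 that was −0.58 and under the fold minimum without PBS replicate 1. EBP, the sterol isomerase, was the gene whose call differed between the comparisons with PBS. It was at 103.4, 101.0 and 91.0 CPM in PBS, 70.1, 57.2 and 62.9 CPM in P-DXd-titled, and 58.3, 70.3 and 68.8 CPM in T-DXd-titled libraries. All treated libraries were lower than all PBS libraries. Its log2 fold change was −0.62 in P-DXd-titled (called) and −0.58 in T-DXd-titled libraries (not called, adjusted p = 0.00547), on either side of the fold minimum, and in all treated libraries it fell by 0.61, by 0.56 without PBS replicate 1, by 0.57 without P-DXd-titled replicate 2 and by 0.58 without T-DXd-titled replicate 1. FDFT1, squalene synthase, MSMO1 and HSD17B7, of the C4 demethylation steps, had log2 fold changes of −0.48, −0.41 and −0.25. NSDHL, which also acts in C4 demethylation, and SC5D, the C5 desaturase, had log2 fold changes of −0.10 and −0.13 with adjusted p of 0.305 and 0.263.

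**Figure D2:**
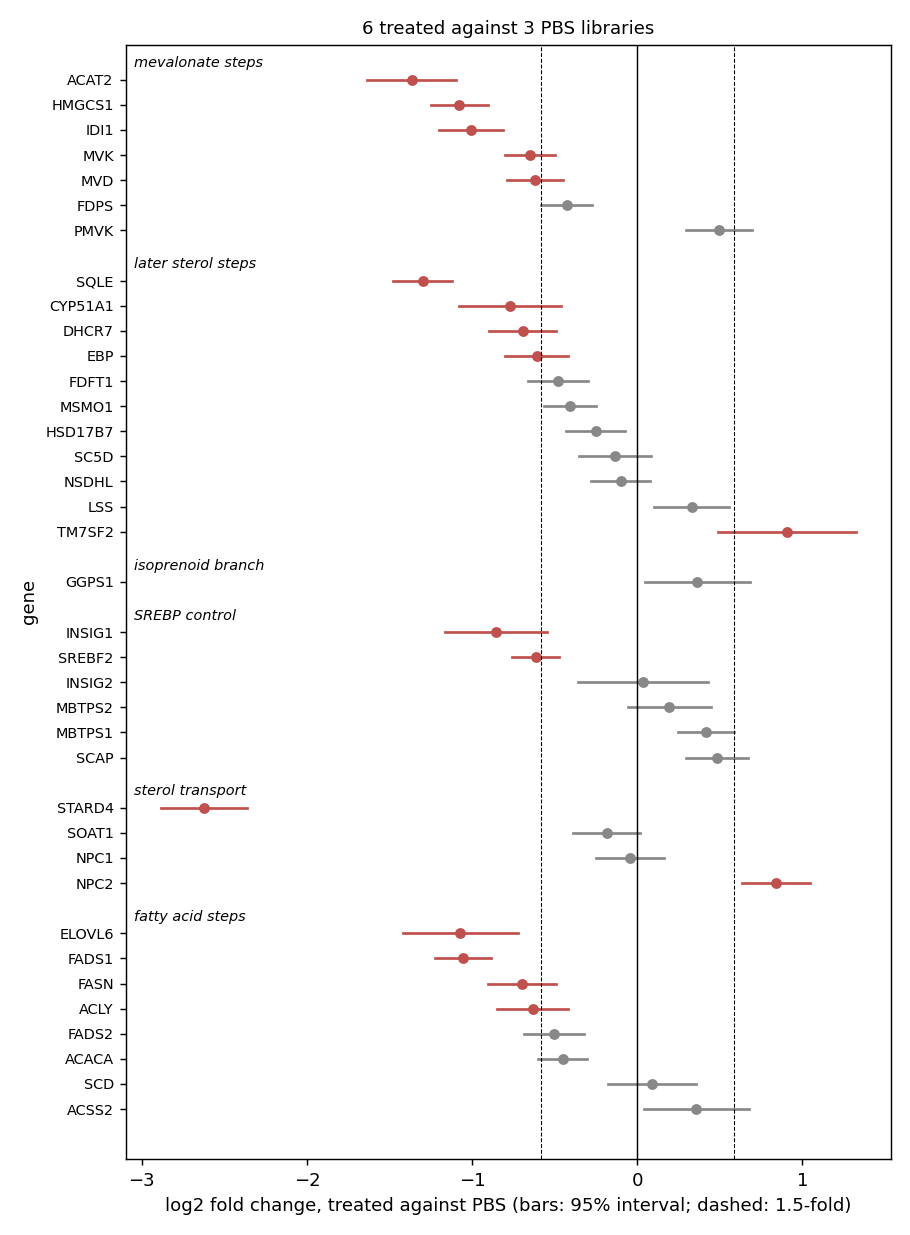
Log2 fold change of the 6 treated against the 3 PBS libraries for each gene (points) with its 95% interval (bars), grouped by role. Red genes were called, gray genes were not, and dashed lines mark a 1.5-fold change; STARD4 lies farthest left at −2.62 and TM7SF2 farthest right at 0.91.

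The 6 genes of SREBP control divided. SREBF2, which encodes SREBP-2, the main activator of sterol synthesis genes, was at 135.8, 146.2 and 150.2 CPM in PBS, 90.8, 87.2 and 100.3 CPM in P-DXd-titled, and 98.7, 94.8 and 92.5 CPM in T-DXd-titled libraries. It fell in all 6 treated libraries, by 0.62 ± 0.07 on the log2 scale (adjusted p = 3.58e-05), and by 0.58, under the fold minimum, without PBS replicate 3. INSIG1, the sterol-sensing retention protein and itself an SREBP target, was at 27.9, 35.9 and 39.1 CPM in PBS, 21.7, 15.4 and 16.0 CPM in P-DXd-titled, and 18.7, 21.1 and 21.0 CPM in T-DXd-titled libraries. Its ranges did not overlap and it fell by 0.85 ± 0.14 (adjusted p = 0.000483).

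INSIG2, its paralog, was at 31.4, 51.9 and 64.2 CPM in PBS, 59.3, 48.5 and 48.8 CPM in P-DXd-titled, and 46.3, 51.2 and 48.3 CPM in T-DXd-titled libraries. All treated values lay within the wide PBS range, the log2 fold change was 0.03 (adjusted p = 0.876). Leaving out PBS replicate 1 turned it to −0.20 (adjusted p = 0.108). The escort SCAP and the site-1 protease MBTPS1 had log2 fold changes of 0.48 ± 0.08 and 0.42 ± 0.08, both with adjusted p under the threshold and under the fold minimum, and in both all 6 treated libraries were above all 3 PBS libraries. The site-2 protease MBTPS2 had a log2 fold change of 0.19 (adjusted p = 0.168).

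STARD4, a soluble carrier of cholesterol between membranes and a known SREBP-2 target, had the largest change of the 37 genes. Its level was 40.1, 33.6 and 33.6 CPM in PBS, 6.99, 5.08 and 5.38 CPM in P-DXd-titled, and 5.28, 6.54 and 5.54 CPM in T-DXd-titled libraries. The highest treated library was far below the lowest PBS library, and the treated level was 0.163 times that of PBS, a log2 fold change of −2.62 ± 0.12 (95% interval −2.88 to −2.36, adjusted p = 6.99e-07). The tables list STARD4 on chromosome 5, 110831731 to 110848288, on a build that they do not name. No listed gene overlaps it there.

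NPC2, the lysosomal protein that hands cholesterol to NPC1 for export, rose. It was at 76.5, 71.8 and 95.7 CPM in PBS, 145.6, 141.6 and 140.2 CPM in P-DXd-titled, and 140.9, 149.2 and 156.4 CPM in T-DXd-titled libraries. The 6 treated libraries were close together and all above PBS, with a log2 fold change of 0.84 ± 0.09 (adjusted p = 4.44e-05). NPC1, its membrane partner, was at 80.2 ± 9.04 CPM in PBS and 77.9 ± 6.34 CPM in treated libraries (log2 fold change −0.04, adjusted p = 0.707). Its listed span shares 25599 bases with C18orf8. SOAT1, which esterifies cholesterol for storage, had a log2 fold change of −0.18 (adjusted p = 0.106).

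**Figure D3:**
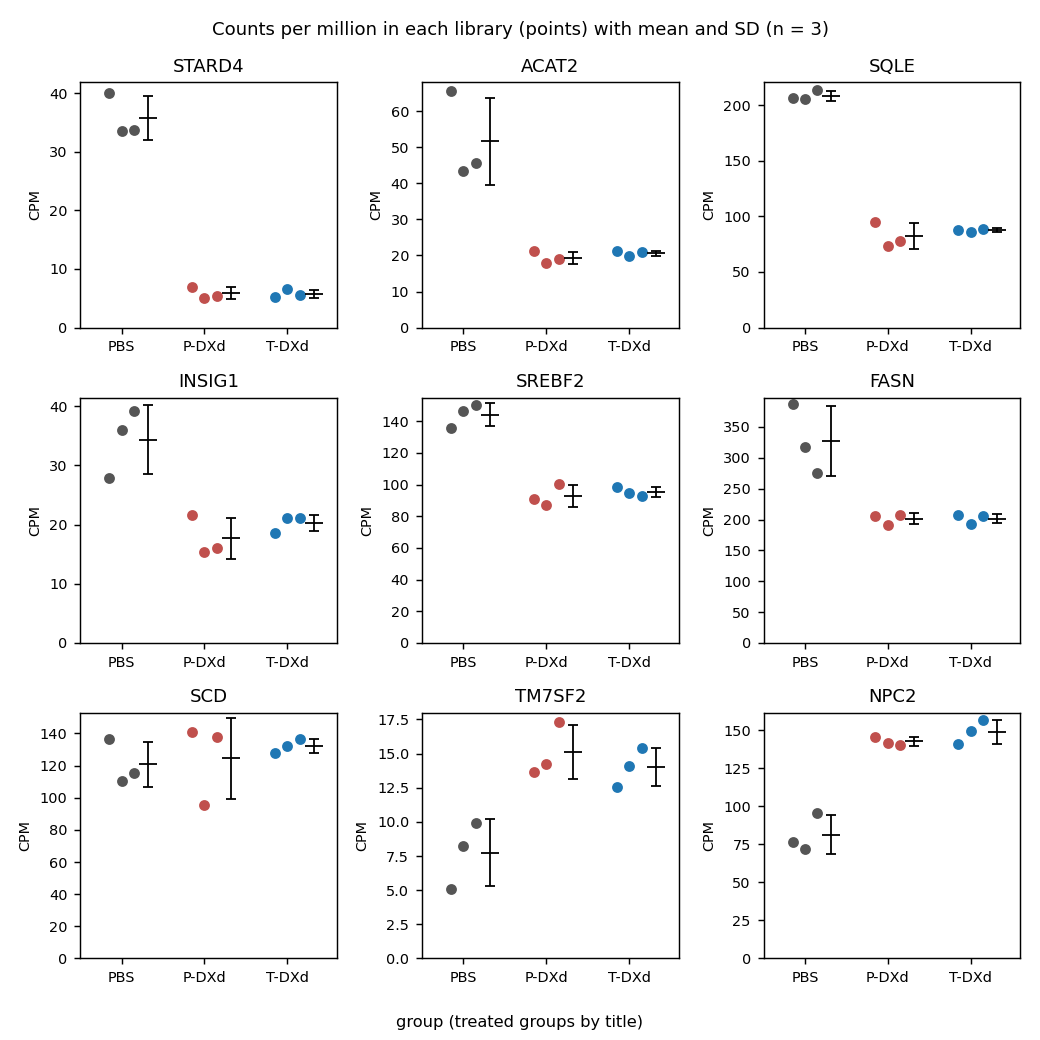
CPM of 9 genes in each library (points; y axis from 0) with the mean and SD of each group of 3 (black bars), for PBS, P-DXd-titled and T-DXd-titled libraries. STARD4, ACAT2, SQLE, INSIG1, SREBF2 and FASN are lower in all 6 treated libraries than in any PBS library, TM7SF2 and NPC2 are higher, and SCD overlaps.

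Of the 8 genes of fatty acid synthesis, 4 fell and none rose (17.1% and 15.2% over all genes tested), with a median log2 fold change of −0.57. ELOVL6, which elongates palmitate to stearate, had the largest fall. It was at 30.6, 18.3 and 19.7 CPM in PBS, 12.1, 9.32 and 12.2 CPM in P-DXd-titled, and 11.2, 10.5 and 9.90 CPM in T-DXd-titled libraries. All treated libraries were below PBS, with a log2 fold change of −1.07 ± 0.16 (adjusted p = 0.000257) that was −0.80 without PBS replicate 1, the highest of all libraries.

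FADS1, the delta-5 desaturase of polyunsaturated fatty acids, fell from 165.5 ± 8.74 to 79.8 ± 6.46 CPM, a log2 fold change of −1.05 ± 0.08. FADS2, the delta-6 desaturase, had a log2 fold change of −0.50 ± 0.08. The whole listed span of FADS1 lies inside that of FADS2 (29692 bases shared), and FADS2 also shares 4265 bases with FEN1. The counts of these genes may therefore not be fully separate.

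FASN, fatty acid synthase, was at 387.5, 317.3 and 275.6 CPM in PBS, 206.2, 191.1 and 207.3 CPM in P-DXd-titled, and 206.8, 192.5 and 205.0 CPM in T-DXd-titled libraries. The PBS libraries were spread widely and the treated libraries narrowly, with no overlap. FASN fell by 0.70 ± 0.09 on the log2 scale (adjusted p = 0.000140), and by 0.55, under the fold minimum, without PBS replicate 1. ACLY, which supplies cytosolic acetyl-CoA from citrate, fell by 0.63, and by 0.47 without PBS replicate 1. ACACA, acetyl-CoA carboxylase, had a log2 fold change of −0.45, and ACSS2, which makes acetyl-CoA from acetate, 0.36 (adjusted p = 0.0535) with PBS replicate 1 at 75.7 CPM and the other 8 libraries at 123.2 CPM or above.

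SCD, the stearoyl-CoA desaturase that makes oleate and also a known SREBP target, was not called. It was at 136.4, 110.2 and 115.6 CPM in PBS, 140.7, 95.6 and 137.7 CPM in P-DXd-titled, and 128.1, 132.0 and 136.8 CPM in T-DXd-titled libraries. The groups overlapped, and the log2 fold change was 0.09 with a 95% interval of −0.18 to 0.36 (adjusted p = 0.546).

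The sterol steps (18 genes, mevalonate and later steps) and the fatty acid steps (8 genes) were set side by side in each library as the mean log2 CPM minus the PBS mean. The sterol steps were at −0.58 to −0.39 in the 6 treated libraries and at −0.03 to 0.04 in PBS. The fatty acid steps were at −0.64 to −0.41 in treated and at −0.05 to 0.09 in PBS libraries. The sterol mean less the fatty acid mean was 0.03 ± 0.05 (SD, n = 6) in treated libraries, with a range of −0.04 to 0.09, and ranged from −0.09 to 0.08 in PBS, and 1 of the 6 treated libraries lay above the PBS range. With GGPS1 added to the sterol steps the difference was 0.08, with 3 of the 6 above the PBS range. Within the sterol steps the mevalonate genes were at −0.73 to −0.59 and the later genes at −0.48 to −0.26 in treated libraries. P-DXd-titled replicate 2 was the lowest treated library in each of these means.

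Per kilobase of exon, a rough scale for comparing genes, PMVK had the highest mean in PBS (57.9 CPM per kb), followed by EBP (55.7), SQLE (48.4) and FASN (35.1), and TM7SF2 was lowest (2.28). Lengths joined all GENCODE exons of a gene on GRCh38, whereas the counts rest on an unnamed build, so the ranks are approximate. PMVK and EBP were not separated, since EBP was the higher in PBS replicates 1 and 2 (58.5 against 53.3 and 57.1 against 56.6 CPM per kb) and PMVK in replicate 3. In treated libraries PMVK still ranked 1 of 37 (81.6 CPM per kb), NPC2 moved from rank 6 to rank 2 (31.5 to 56.4 CPM per kb), and SQLE moved from rank 3 to rank 11 (48.4 to 19.7 CPM per kb). STARD4 moved from rank 32 (6.29 CPM per kb) to rank 37 (1.02 CPM per kb).

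Each conjugate was also compared with the same 3 PBS libraries, so these comparisons share their controls. In P-DXd-titled libraries 16 of the 37 genes fell and 2 rose, where 25% of 14945 genes tested were called (13.8% lower, 11.2% higher). In T-DXd-titled libraries 15 fell and 2 rose, where 28.6% of 14915 genes tested were called (15.5% lower, 13.1% higher). STARD4 had log2 fold changes of −2.60 ± 0.17 under the P-DXd title and −2.63 ± 0.14 under the T-DXd title, SQLE −1.33 ± 0.12 and −1.25 ± 0.07, FASN −0.68 ± 0.14 and −0.70 ± 0.13, and NPC2 0.82 ± 0.13 and 0.87 ± 0.12.

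Several of these calls changed when 1 library was left out. In the P-DXd-titled comparison, leaving out P-DXd-titled replicate 2 took 18 calls to 12, and the share called over all genes tested from 25% to 16.1%. SREBF2 (−0.57) and EBP (−0.55) came under the fold minimum, and CYP51A1, TM7SF2, ELOVL6 and ACLY had adjusted p of 0.0534, 0.0655, 0.0567 and 0.0660. MVD, DHCR7, ACLY and FASN were lost there without PBS replicate 1. In the T-DXd-titled comparison, MVK (−0.56), MVD, DHCR7, ACLY and FASN came under the fold minimum without PBS replicate 1. TM7SF2 lost its call in both comparisons without PBS replicate 2 and without any one library of the conjugate. Without P-DXd-titled replicate 3, where 12.1% of genes tested were called, CYP51A1, ELOVL6 and ACLY lost their P-DXd-titled calls as well. Their log2 fold changes were then −0.89, −1.07 and −0.64, larger in size than with all libraries (−0.79, −1.01 and −0.62). Their adjusted p rose above 0.05. CYP51A1 also lost its call without PBS replicate 2 or 3, and ACLY without P-DXd-titled replicate 1. MVK and MVD lost their T-DXd-titled calls without T-DXd-titled replicate 1, while EBP gained one without PBS replicate 3 or T-DXd-titled replicate 2 or 3, and PMVK one (0.63) without PBS replicate 3. INSIG1 lost its P-DXd-titled call without P-DXd-titled replicate 3 (adjusted p = 0.0561), and SREBF2 its T-DXd-titled call without PBS replicate 2 or 3 or T-DXd-titled replicate 3. ACAT2, HMGCS1, IDI1, SQLE, STARD4, NPC2 and FADS1 kept their calls in both comparisons whichever library was left out.

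Compared directly, P-DXd-titled and T-DXd-titled libraries differed in 0 of the 37 genes, where 0.0273% of 14653 genes tested were called. By DESeq2 the number was also 0, and at an unadjusted p under 0.05 it was 1, LSS, with a log2 difference of −0.23 (95% interval −0.42 to −0.04, adjusted p = 0.9998 by edgeR). The differences ranged from −0.23 to 0.11. In all 37 genes the 95% interval of the difference lay within 1.5-fold in either direction. The interval that came closest to 1.5-fold was that of INSIG1, −0.48 to 0.10. A p above the threshold does not show that the conjugates act alike.

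**Figure D4:**
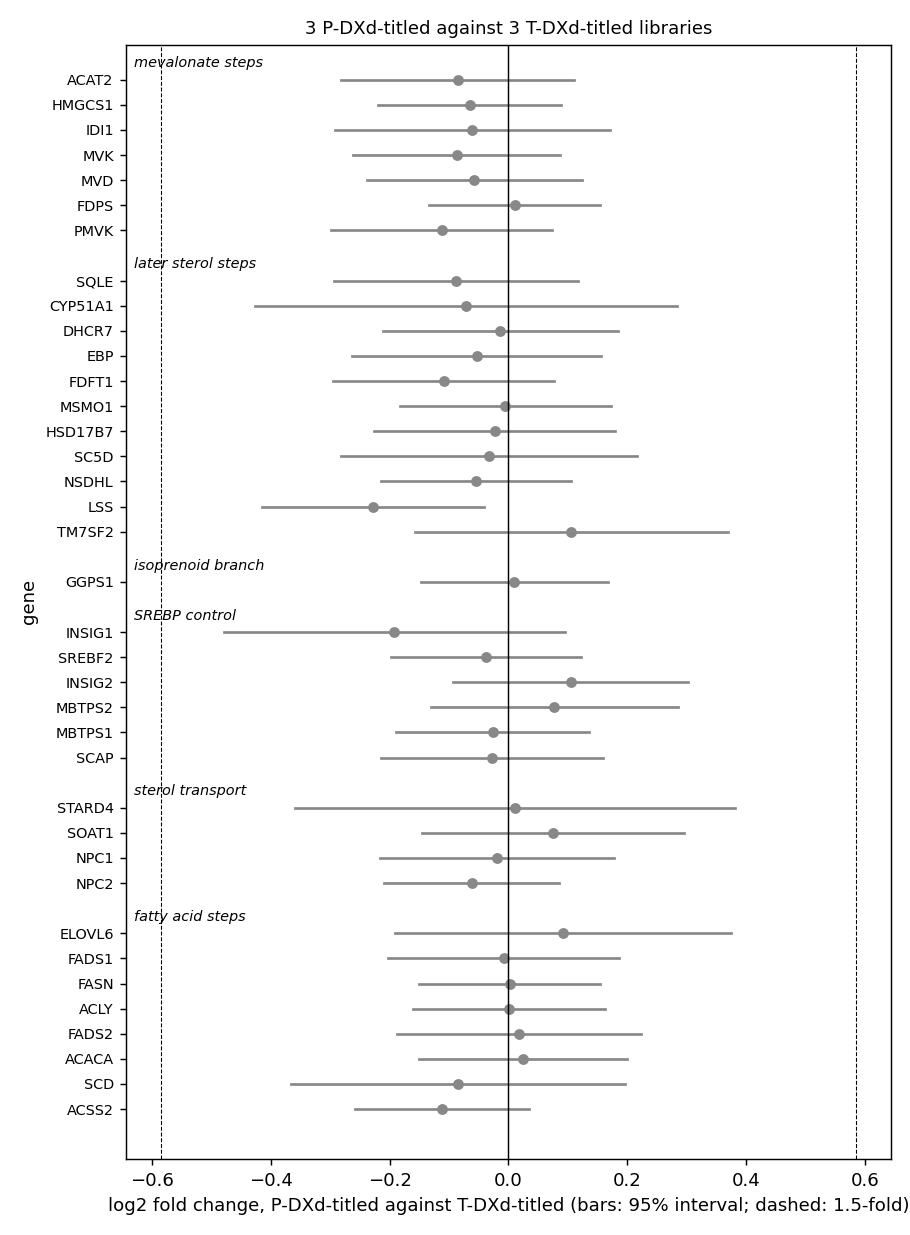
Log2 fold change of 3 P-DXd-titled against 3 T-DXd-titled libraries for each gene (points) with its 95% interval (bars); dashed lines mark 1.5-fold. No gene was called, every interval lies between the dashed lines, and that of LSS alone leaves out 0.

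A wider list held 34 further genes of sterol synthesis, uptake and breakdown with deposited counts. Of these, 32 were tested, of which 4 rose and 6 fell, with a median log2 fold change of 0.06. Over all genes tested 15.2% were called higher and 17.1% lower, and nothing is read from the counts of the wider lists. CYP27A1, which makes 27-hydroxycholesterol and acidic bile acid precursors, had the largest rise, from 1.89 ± 1.55 to 28.0 ± 3.62 CPM (log2 fold change 3.87 ± 0.55, adjusted p = 0.000203). TMEM97, a sterol-regulated binding partner of NPC1, fell from 41.5 ± 11.2 to 15.7 ± 1.17 CPM (log2 fold change −1.41 ± 0.14).

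Of 33 further fatty acid and lipid synthesis genes tested, 10 rose and 5 fell, with a median log2 fold change of −0.04. ELOVL3, an elongase of very long saturated chains, rose from 1.45 ± 0.12 to 5.97 ± 1.37 CPM (log2 fold change 2.04). PNPLA3, a triglyceride lipase and SREBP target, was under 1 CPM in every library and had the largest fitted fall (−2.53). ACACB, the mitochondrial acetyl-CoA carboxylase and the paralog of ACACA, fell by 0.89 ± 0.11.

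Of 24 genes of fatty acid oxidation, 1 rose (ACAA1, peroxisomal thiolase, 0.66) and 3 fell (CPT1B, HADH and ACADM), with a median of −0.09. Over all genes tested 32.2% were called. The mean of this list was below all 3 PBS libraries (−0.05 to 0.05) in all 6 treated libraries (−0.19 to −0.06). The gap was small, with the nearest treated library at −0.0567 and the nearest PBS library at −0.0493. Of 11 genes of the liver X receptor (LXR) and cholesterol efflux list, 5 rose and 2 fell. LXR is activated by oxysterols and induces sterol export. ABCG1, a cholesterol exporter, rose from 1.48 ± 0.31 to 15.7 ± 1.87 CPM (log2 fold change 3.41 ± 0.17, adjusted p = 1.49e-06). Its partner exporter ABCA1 rose by 2.02 ± 0.14 and MYLIP, an LXR-induced ligase that degrades lipoprotein receptors, by 2.05 ± 0.08. APOC1 had the largest fall of the list (−2.87) at 1.36 ± 1.14 CPM in PBS.

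**Figure D5:**
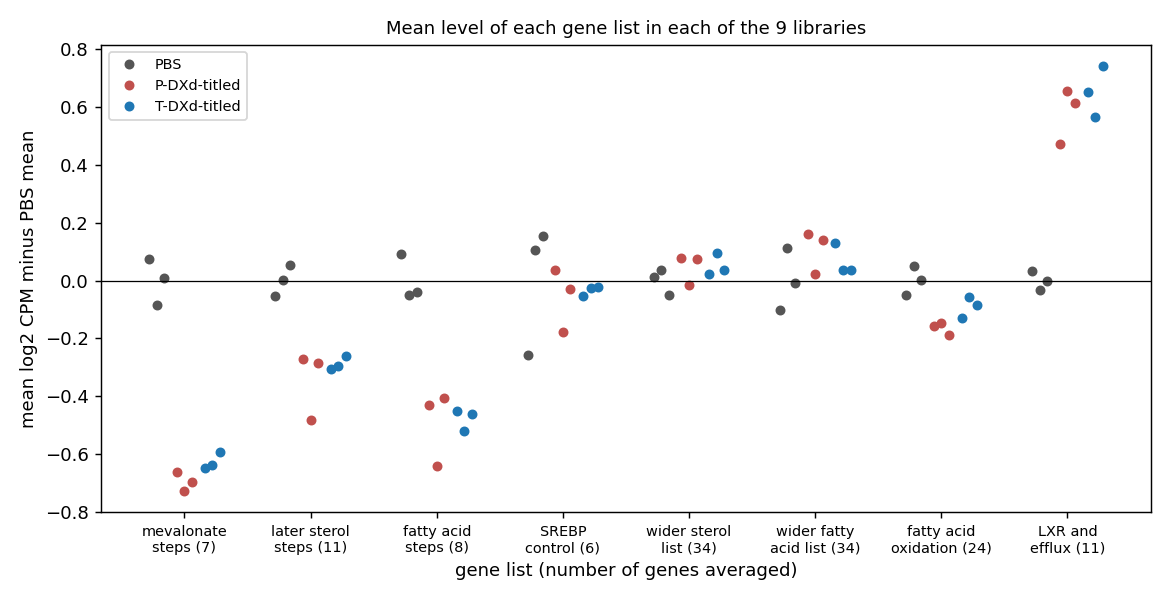
Mean log2 CPM of each gene list in each library minus the PBS mean (points; gray PBS, red P-DXd-titled, blue T-DXd-titled; number of genes averaged in brackets). Mevalonate, later sterol and fatty acid steps are below PBS in all 6 treated libraries, LXR and efflux genes are above it (0.47 to 0.74), fatty acid oxidation is slightly below it (−0.19 to −0.06), and SREBP control and the wider sterol and fatty acid lists overlap PBS.

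Marker sums did not overlap between treated and PBS libraries, apart from the fibroblast and skin sums. All 16 proliferation genes of a cell cycle list fell, with a summed level of 1677 to 2858 CPM in PBS and 511.1 to 663.0 CPM in treated libraries, and PBS replicate 1 was the highest. The summed level of 11 fibroblast markers was 1066 to 2074 CPM in PBS and 1258 to 2262 CPM in treated libraries, that of 7 macrophage markers 4.82 to 6.76 and 12.9 to 24.4 CPM, that of 9 adipocyte markers 45.4 to 58.7 and 127.0 to 156.2 CPM, and that of 12 muscle markers 14.5 to 68.5 and 117.7 to 4851 CPM. The highest fibroblast sum in PBS was that of PBS replicate 1, and of 10 fibroblast markers tested 6 rose and 0 fell. Of 7 adipocyte markers tested 4 rose, of which CFD gained most (6.51 to 41.5 CPM), while ADIPOQ and LEP were in neither table and FABP4 was under 0.4 CPM in every library. Over all genes tested in treated against PBS, 15.2% were called higher and 17.1% lower. Host cells in these tumors are mouse cells, whereas the genes counted are human, and mouse read removal is not stated. The sums therefore do not measure the content of host cells. The part of host cells and of cell cycle in the lipid genes was not tested. Without PBS replicate 1 and P-DXd-titled replicate 2, an alternative added after seeing the data, 12 of the 37 genes kept their call (10 lower, 2 higher), where 28.5% of genes tested were called.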

How the data were processed

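Per the study's methods, the authors used Cutadapt for trimming, STAR for alignment and featureCounts for counting, and deposited raw counts per gene in 2 tables (16098 and 16114 genes, 16008 in both, with identical PBS counts). Each listed gene has at least 5 counts in at least 2 libraries. Mouse read removal and strand use are not stated. The methods name GRCh38, but 0 of the 37 genes are listed at their GRCh38 start and end, so table coordinates are on an unnamed build. No per-sample column was left unused (0).

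Counts were tested with edgeR 4.0.16 in R 4.3.3 (filterByExpr, TMM, two-sided quasi-likelihood F test), treated against PBS on 9 libraries and each other pair on its 6. CPM used TMM library sizes, and log2 CPM a prior count of 2. DESeq2 1.42.0 and other settings were alternatives. Methods were tested on simulated data. Exon lengths came from GENCODE on GRCh38 and promoters from RefSeq (33 of 37 genes). The genes and lists were chosen with earlier results of these data known. Values by library are given for the called gene of each role with the largest rise and fall, for SREBF2, INSIG1, INSIG2, SQLE, LSS, FASN and SCD, and where calls differed between comparisons; for other lists, the largest rise and fall. HMGCS1, IDI1, FADS1, ABCA1, MYLIP, ACACB and CFD were picked after their values were seen. Some genes of the wider lists, 1 with a larger fall than TMEM97 among them, are not reported here.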

Additional observations from a re-analysis of the deposited data

Results flagged for a closer look

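In 4 genes and 1 mean, a single library lay far from the other 5 treated libraries (by Dixon's test at its 95% limit for 6 values). The check covered all 37 genes and the means of the sterol and fatty acid steps, with both conjugates pooled. Chance alone gives such a gap in about 1 in 20 cases, so some of these flags may be chance. P-DXd-titled replicate 2 was low for CYP51A1 (8.002 CPM against 11.1 to 12.4), for SCD (95.6 CPM against 128.1 to 140.6) and for the mean of the sterol steps (−0.58 against −0.45 to −0.39). It was also the shallowest library and had the highest muscle marker sum, and the part of either in these values was not tested. P-DXd-titled replicate 1 was low for PMVK (68.8 CPM against 82.4 to 87.4), and T-DXd-titled replicate 3 was high for NSDHL (63.2 CPM against 54.6 to 56.2).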

How the results depend on the processing

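In treated against PBS, 18 of the 37 genes were called, and 17 or 18 under DESeq2, other size factors, other low-count filters and each left-out library but 1. Without PBS replicate 1 the number was 13 (range over left-out libraries 13 to 18), with MVD, EBP, DHCR7, ACLY and FASN under the fold minimum. For P-DXd-titled and T-DXd-titled against PBS these ranges were 12 to 17 and 12 to 18, and 0 to 0 between conjugates. Without a fold minimum the numbers were 28 for treated and 27 for T-DXd-titled libraries, and with glmTreat, which tests against 1.5-fold, 8, 6 and 6 for treated, P-DXd-titled and T-DXd-titled. Over all genes, 8398 were called without a fold minimum in treated, and with glmTreat 2536, 1130, 1696 and, between conjugates, 1. Left-out libraries gave 4204 to 5239, 1857 to 3936 and 2820 to 4641 genes against PBS and 0 to 8 between conjugates, where DESeq2 called 23 and 1 fit of all 9 libraries 0. The sterol less fatty acid mean was −0.01 to 0.07 over left-out libraries and 0.08 with GGPS1 among the sterol steps. With a replicate block on a digit of the code in the sample titles, whose meaning the labels do not give and whose libraries showed no pairing (median correlation 0.02 for same and −0.02 for other digits), 18, 18 and 16 genes were called, and 0 between conjugates. For T-DXd-titled libraries 15 of the 16 were also called without the block, TM7SF2 (adjusted p = 0.0517) and ACLY (−0.57) were lost, and EBP (−0.60) was gained.

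Among the 37 genes, the direction against PBS turned in INSIG2, NPC1 and SCD, none of them called. Over left-out libraries INSIG2 ranged from −0.20 to 0.28 in treated, −0.14 to 0.33 in P-DXd-titled and −0.26 to 0.22 in T-DXd-titled libraries, and was at −0.19 in treated without both PBS replicate 1 and P-DXd-titled replicate 2. NPC1 ranged from −0.13 to 0.0043, −0.14 to 0.0555 and −0.12 to 0.0157 in the same order. SCD ranged from −0.0415 to 0.22 in P-DXd-titled libraries. The causes were not tested. With 3 libraries a group, changes near 1.5-fold lie within reach of a single library.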
